A study of Homo sapiens with 3 samples.

Results

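The genes described here are 9 structural and matrix genes by which epithelial and mesenchymal cell states are told apart: VIM, FN1, TGFBI, SPARC, TNC, THBS1, CDH2, CDH11 and CDH1. A peak was counted for a gene when its centre lay in the gene body or within 100 kb of a transcription start site (TSS) of any of its transcripts, with GENCODE 44 on GRCh37, the assembly behind hg19. By this rule 22 of the 9998 Fra-1 peaks and 27 of the 13003 Fra-2 peaks belonged to the 9 genes, out of 20098 protein-coding genes on chromosomes 1 to 22 and X.

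The peaks come from chromatin immunoprecipitation followed by sequencing (ChIP-seq), carried out to map where Fra-1 and Fra-2 sit on the genome of MDA-MB-231, an established human triple-negative (basal B) breast cancer cell line. The labels name no genetic change or treatment of the cells, which grew with 10% fetal calf serum at 37°C. The 3 samples are a Fra-1 precipitation, a Fra-2 precipitation and input DNA, and the labels mention 2 independent replicates for each. Each antibody has 1 peak list, and input DNA was not analysed here. The values therefore come without an error between replicates. The lists give positions only. A peak's width in bp is therefore the sole measure of its size, the read depth behind it is unknown, and intervals of shares (95%, exact Clopper-Pearson) cover counting error only. Peak lists carry no expression values, so the state of the cells could not be checked against markers.

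Fra-1 and Fra-2, the products of FOSL1 and FOSL2, are Fos proteins that pair with Jun proteins to form AP-1, a dimer that binds the element TGAGTCA. On the opposite strand it reads TGACTCA. During epithelial-mesenchymal transition, cells lose E-cadherin (CDH1) from their junctions, take up N-cadherin (CDH2) and cadherin-11 (CDH11), build vimentin (VIM) filaments, and secrete a matrix rich in fibronectin (FN1), tenascin-C (TNC), thrombospondin-1 (THBS1), SPARC and the TGF-beta-induced protein (TGFBI). AP-1 mostly acts from enhancers away from promoters, which is why positions were sought over a wide region. A peak near a gene does not show that it acts on that gene.

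The 33 sites at these genes, counting overlapping peaks of both lists once, held 21 copies of TGAGTCA in 20 sites. They are shown first, because TGAGTCA is the element that AP-1 binds. Each is read 5′ to 3′ on the strand that spells TGAGTCA, with 10 flanking bases on each side and the element in capitals. The distance is that of the site's centre from the TSS of the gene's canonical transcript, negative upstream, and the sequence is that of GRCh37. At sites present in both lists the elements were:
VIM -11.9 kb (both lists, chr10:17258350-17258376, plus strand): gttatgagcaTGAGTCAccaaaactac
VIM 0.286 kb (both lists, chr10:17270515-17270541, plus strand): cagggcgcggTGAGTCAccgccggtga
FN1 25.0 kb (both lists, chr2:216275736-216275762, minus strand): tggtatatgaTGAGTCAcaaagcaaca
FN1 25.0 kb (both lists, chr2:216275774-216275800, minus strand): tatccaagaaTGAGTCAcaaaaccaga
FN1 -92.7 kb (both lists, chr2:216393451-216393477, minus strand): tatggctgaaTGAGTCAgcggctaagc
TGFBI -22.0 kb (both lists, chr5:135342679-135342705, plus strand): catgtagaggTGAGTCAgcctcatggt
TGFBI -8.35 kb (both lists, chr5:135356411-135356437, minus strand): tagacacaagTGAGTCAttctttggtg
TGFBI 24.8 kb (both lists, chr5:135389513-135389539, minus strand): tgtcatctcgTGAGTCAacaacccctc
TGFBI 29.8 kb (both lists, chr5:135394442-135394468, plus strand): catggaaacaTGAGTCAtactcacaga
SPARC -58.4 kb (both lists, chr5:151124699-151124725, minus strand): atttggaaccTGAGTCAtagcagtgtt

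At sites present in 1 list the elements were:
SPARC 15.4 kb (Fra-2 only, chr5:151050965-151050991, minus strand): aaagaggggaTGAGTCAgagtgctctg
SPARC 1.88 kb (Fra-2 only, chr5:151064643-151064669, plus strand): cctcggagagTGAGTCAggcagagaag
SPARC -20.2 kb (Fra-1 only, chr5:151086703-151086729, minus strand): gataattgaaTGAGTCAgacacttatt
TNC 109 kb (Fra-2 only, chr9:117771024-117771050, plus strand): gaatacagtgTGAGTCActctccagac
TNC -0.865 kb (Fra-2 only, chr9:117881299-117881325, plus strand): ctccaagctcTGAGTCAtccgttcgtt
TNC -46.5 kb (Fra-2 only, chr9:117926957-117926983, minus strand): ccctcagaagTGAGTCAtcaaggattg
TNC -52.8 kb (Fra-1 only, chr9:117933147-117933173, plus strand): atgtcctgaaTGAGTCAtaaactcttc
THBS1 43.8 kb (Fra-2 only, chr15:39917111-39917137, plus strand): aacaggaaagTGAGTCAgctcccaggt
CDH2 61.8 kb (Fra-2 only, chr18:25695266-25695292, plus strand): aagtggggcaTGAGTCAtactgtttta
CDH1 -29.6 kb (Fra-2 only, chr16:68741505-68741531, minus strand): gccagggtggTGAGTCActcccacatc
CDH1 185 kb (Fra-1 only, chr16:68955717-68955743, minus strand): atgtaatcagTGAGTCAggatggctca

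The base just before the element was A in 9 copies, G in 10, C in 2 and T in none. Over all 456218 copies on chromosomes 1 to 22 and X, 49.6% had A or G there, as did 63.5% of the copies in Fra-1 peaks and 70.4% of the copies under Fra-2. T stood there in 22.8% of all copies, in 7.80% of those in Fra-1 peaks and in 5.32% of those in Fra-2 peaks. The letters at the 9 genes thus leaned the same way as the whole lists, with 19 of 21 copies behind A or G. Of the 21 elements 18 lay within 50 bp of the centre of their site. The elements were sought within the borders of sites 100 to 500 bp wide, which itself keeps them near the centre.

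Peaks of both factors stood at most of these genes, and the sites common to both lists were all at filament and matrix genes. At least 1 Fra-1 peak was found at 7 of the 9 genes, against 45.3% of all protein-coding genes, and at least 1 Fra-2 peak at 8 of 9, against 58.6%. The median was 3 Fra-1 and 2 Fra-2 peaks per gene, and 0 and 1 over all protein-coding genes. Peaks of each factor were present at 7 of 9, against 42.7%. CDH11 had no peak of either factor, as 38.8% of genes do, and THBS1 had Fra-2 peaks without a Fra-1 peak, as 15.9% do. A peak shared by both lists was present at 5 of 9 genes (VIM, FN1, TGFBI, SPARC and TNC), against 40.6% of all genes. Both factors with no shared peak, seen at 2.07% of genes, was the pattern of CDH2 and CDH1. The region searched spanned 205 to 412 kb per gene, and its median over all protein-coding genes was 211 kb. Per 100 kb searched, the 9 genes held 0.889 Fra-1 and 1.09 Fra-2 peaks, against 0.377 and 0.581 over the regions of all protein-coding genes, which overlap each other.

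**Figure D1:**
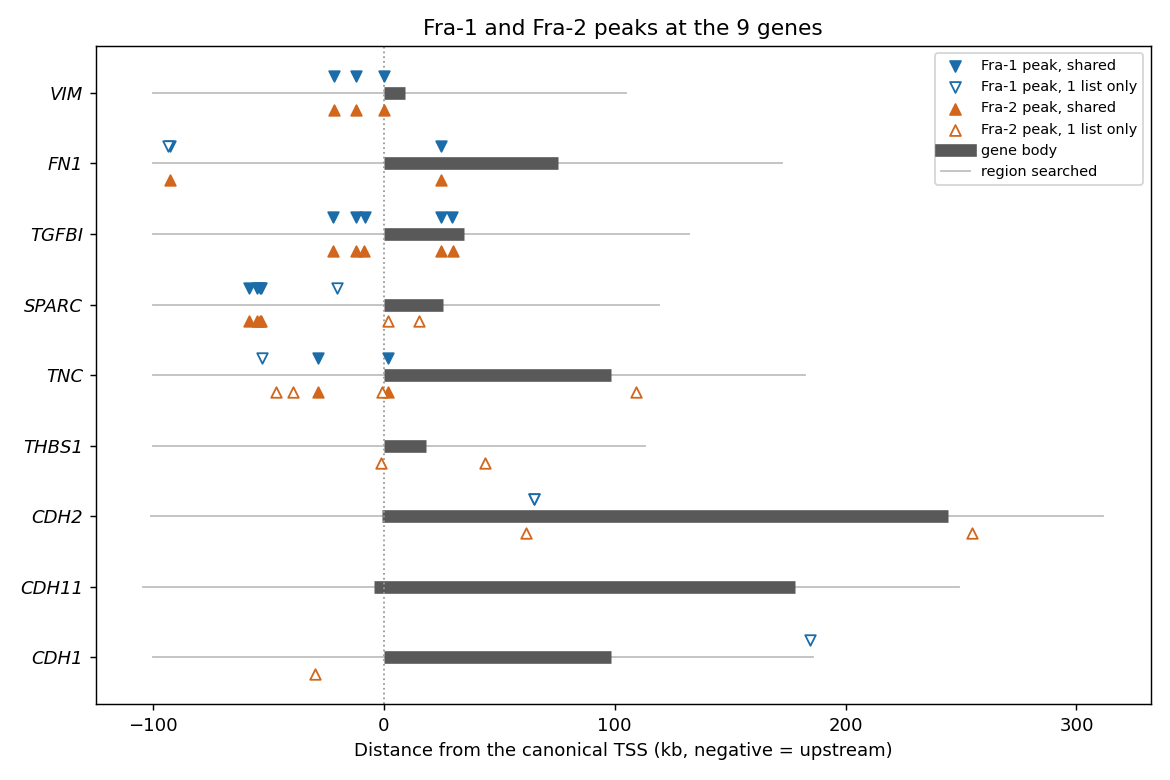
Positions of Fra-1 peaks (downward triangles) and Fra-2 peaks (upward triangles) along each gene, in kb from the canonical TSS, with filled symbols for peaks that overlap the other list, the gene body as a thick bar and the region searched as a thin line. Filled symbols occur at VIM, FN1, TGFBI, SPARC and TNC, and open symbols alone at THBS1, CDH2 and CDH1.

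**Figure D2:**
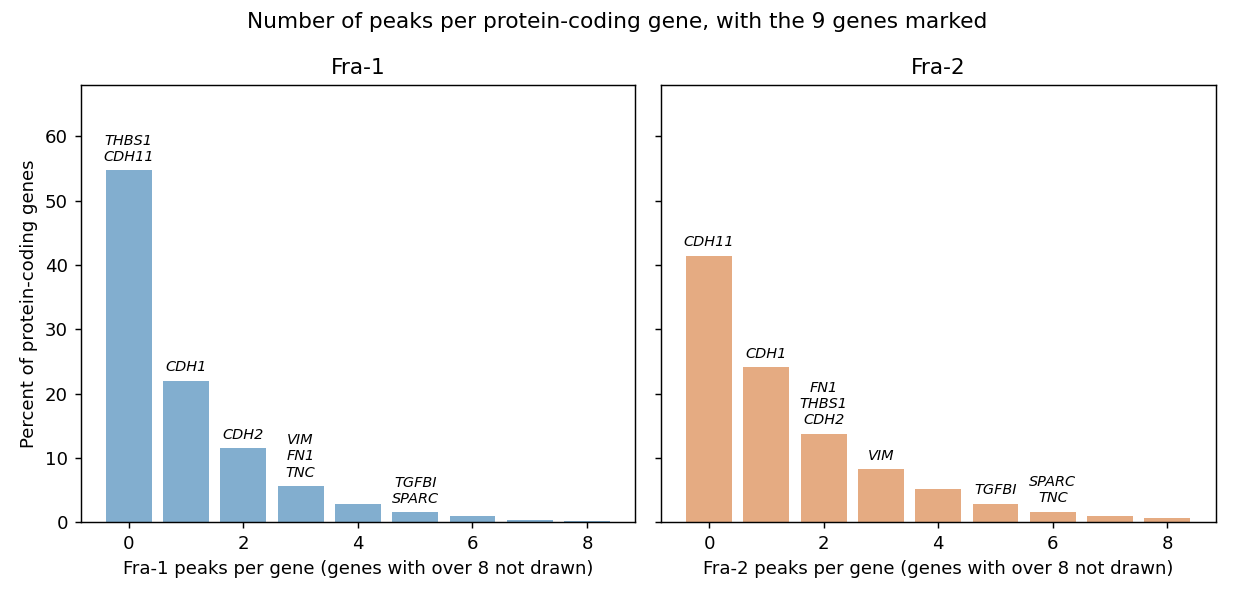
Percent of the 20098 protein-coding genes (vertical axis) with each number of Fra-1 (left) and Fra-2 (right) peaks, with the 9 genes named above their bar. TGFBI and SPARC, with 5 Fra-1 peaks, lie in the upper tail, and CDH11 lies in the class without peaks in both panels.

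VIM, which encodes the intermediate filament protein of mesenchymal cells (ENSG00000026025, chromosome 10, 17270240 to 17279592, plus strand), had 3 peaks in each list, and every one was shared. The site nearest to the TSS ran from 17270401 to 17270651 in both lists, 250 bp in each, with its centre 0.286 kb downstream of the canonical TSS. It lay in exon 1 of a protein-coding transcript, 0.012 kb from another TSS of VIM, and inside the antisense gene VIM-AS1. Its GC content was 66.2% within 100 bp of the centre. VIM was the sole gene of the 9 with a Fra-1 peak within 1 kb of its canonical TSS, a position found at 0.846% of genes for Fra-1 and 1.88% for Fra-2.

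Further upstream, VIM had a site at -11.9 kb, also within VIM-AS1, with widths of 200 bp (Fra-1) and 250 bp (Fra-2) and 1 element. It is shown whole, as the widest shared VIM peak clear of exons, with the element in capitals.
VIM -11.9 kb (chr10:17258251-17258500, plus strand): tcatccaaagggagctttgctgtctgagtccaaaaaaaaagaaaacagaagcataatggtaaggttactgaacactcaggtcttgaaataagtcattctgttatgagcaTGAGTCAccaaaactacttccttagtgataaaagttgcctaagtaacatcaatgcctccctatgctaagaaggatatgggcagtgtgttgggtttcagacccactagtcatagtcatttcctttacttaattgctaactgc

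The last VIM site, at -21.7 kb, measured 100 bp (Fra-1) and 150 bp (Fra-2) and had no TGAGTCA. It lay 4.88 kb from a TSS of TRDMT1 in the Fra-1 list, nearer than VIM's own.

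FN1 (ENSG00000115414, chromosome 2, 216225163 to 216300796, minus strand), the gene of the cell-binding matrix glycoprotein fibronectin, had 3 Fra-1 and 2 Fra-2 peaks, of which 2 sites were shared. None lay near the canonical TSS. The nearest, in an intron at 25.0 kb, had the same borders in both lists (216275651 to 216275901, 250 bp) and was 1.10 kb from the TSS of an FN1 transcript that is not protein-coding. It is shown because it was the sole site of the 33 with 2 elements. Both are on the minus strand and thus spelled TGACTCA here.
FN1 25.0 kb (chr2:216275651-216275900, plus strand): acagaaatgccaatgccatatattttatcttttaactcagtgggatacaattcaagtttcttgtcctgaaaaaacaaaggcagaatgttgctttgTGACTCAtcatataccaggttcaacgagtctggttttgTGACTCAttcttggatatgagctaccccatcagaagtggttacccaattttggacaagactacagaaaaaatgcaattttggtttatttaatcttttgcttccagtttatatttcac

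The remaining FN1 peaks sat at the far edge of the region. A shared site at -92.7 kb measured 300 bp (Fra-1) and 250 bp (Fra-2), and a 100 bp Fra-1 peak at -93.5 kb had no Fra-2 partner and no element. The shared site, the widest at FN1, held 1 TGAGTCA and, within 100 bp of its centre, the TEAD core GGAATG.
FN1 -92.7 kb (chr2:216393301-216393600, plus strand): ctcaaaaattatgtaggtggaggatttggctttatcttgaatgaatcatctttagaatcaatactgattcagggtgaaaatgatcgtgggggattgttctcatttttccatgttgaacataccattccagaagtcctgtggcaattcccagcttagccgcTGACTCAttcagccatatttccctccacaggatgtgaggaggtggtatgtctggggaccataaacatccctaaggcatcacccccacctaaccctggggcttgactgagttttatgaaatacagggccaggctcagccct

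TGFBI (ENSG00000120708, chromosome 5, 135364677 to 135399507, plus strand), whose product links cells to collagen in the matrix, had 5 sites, each with a peak in both lists. At least 5 peaks were found at 3.31% of protein-coding genes for Fra-1 and at 7.23% for Fra-2. From upstream to downstream the Fra-1 widths were 350, 500, 200, 250 and 200 bp, and the Fra-2 widths 400, 250, 350, 250 and 350 bp. No list was wider throughout: Fra-1 was wider at 1 site, Fra-2 at 3, and 1 site was equal. Summed, Fra-1 peaks covered 1500 bp and Fra-2 peaks 1600 bp, the most of the 9 genes in each list.

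The TGFBI sites at -22.0, -11.8 and -8.35 kb were upstream and intergenic, and the others lay inside the gene at 24.8 and 29.8 kb. The last of these was 0.087 kb (Fra-1) and 0.062 kb (Fra-2) from the TSS of a protein-coding transcript that starts within the gene, and so counts as a promoter peak, although the nearest peak to the canonical TSS was the Fra-1 peak at -8.28 kb. The widest Fra-1 peak of the 9 genes, at -11.8 kb from 135352601 to 135353101, was the TGFBI site without TGAGTCA. It held the RUNX core TGTGGTT, as did the site at -8.35 kb. Its central 300 bases, shown for the absence of capitals, read:
TGFBI -11.8 kb (chr5:135352701-135353000, plus strand): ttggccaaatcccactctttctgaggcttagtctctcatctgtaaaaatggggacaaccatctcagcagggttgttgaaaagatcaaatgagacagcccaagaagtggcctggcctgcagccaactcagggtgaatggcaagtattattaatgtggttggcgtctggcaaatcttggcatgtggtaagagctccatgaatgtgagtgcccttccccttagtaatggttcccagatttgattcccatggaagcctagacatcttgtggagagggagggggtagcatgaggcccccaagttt

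SPARC (ENSG00000113140, chromosome 5, 151040657 to 151066536, minus strand), a collagen-binding matricellular protein, had 5 Fra-1 and 6 Fra-2 peaks, and 4 of each were shared. These 4 formed a cluster upstream, at -53.1, -53.6, -55.0 and -58.4 kb. They lay nearer to ATOX1, a copper chaperone gene, and the last was centred in its exon 3, 6.80 kb from an ATOX1 TSS. Fra-1 widths from the first to the last were 150, 150, 300 and 450 bp, and Fra-2 widths 100, 100, 250 and 450 bp. Sites at -53.1, -53.6 and -55.0 kb had no TGAGTCA, and each held GGAATG within 100 bp of its centre in both lists.

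Inside and just upstream of SPARC itself, no site was shared. Fra-2 peaks lay in introns at 1.88 kb (151064501 to 151064701, 200 bp), 0.190 kb from an internal protein-coding TSS, and at 15.4 kb (150 bp). The Fra-1 peak at -20.2 kb was 250 bp wide and lay within the non-coding gene CLMAT3, as did the Fra-2 peak at 1.88 kb. All 3 held TGAGTCA. With the cluster assigned to ATOX1 instead, SPARC would keep 1 Fra-1 and 2 Fra-2 peaks.

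TNC (ENSG00000041982, chromosome 9, 117781854 to 117880486, minus strand), which encodes a large anti-adhesive matrix protein of wounds and tumour stroma, had 3 Fra-1 and 6 Fra-2 peaks. All of them lay within the non-coding gene DELEC1. At least 3 Fra-1 peaks were found at 11.8% of protein-coding genes. Neither of the shared sites, in an intron at 2.04 kb (Fra-1 200 bp, Fra-2 100 bp) and at -28.6 kb (150 bp in both), held TGAGTCA. Of the 4 Fra-2-only sites 3 did, at -46.5, -0.865 and 109 kb, and the exception lay at -39.3 kb. The Fra-1-only site at -52.8 kb held it too. In the Fra-2 list as a whole the element was likewise more frequent at unshared peaks (77.4%) than at shared ones (62.6%). TNC was besides VIM the only gene of the 9 with a peak within 1 kb of its canonical TSS, in the Fra-2 list alone, from 117881201 to 117881401 (200 bp). That site and the shared site in the gene, which are separated by 2.7 kb, are shown together for contrast.
TNC -0.865 kb (chr9:117881201-117881400, plus strand): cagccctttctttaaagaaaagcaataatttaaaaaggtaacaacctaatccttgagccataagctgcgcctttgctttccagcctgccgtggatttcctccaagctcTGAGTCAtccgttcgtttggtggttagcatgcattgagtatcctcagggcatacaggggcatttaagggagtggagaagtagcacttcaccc
TNC 2.04 kb (chr9:117878301-117878500, plus strand): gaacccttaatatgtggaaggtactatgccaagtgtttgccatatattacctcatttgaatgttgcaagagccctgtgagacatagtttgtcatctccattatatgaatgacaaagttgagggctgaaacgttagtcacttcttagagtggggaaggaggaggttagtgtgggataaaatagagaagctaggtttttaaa

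THBS1 (ENSG00000137801, chromosome 15, 39873280 to 39891667, plus strand), the gene of a matrix protein that activates latent TGF-beta, had no Fra-1 peak and 2 Fra-2 peaks. Its nearest Fra-1 peak was 355 kb from the canonical TSS. The Fra-2 peak at -1.15 kb was 150 bp wide (39872051 to 39872201) and had no TGAGTCA, and the other, 200 bp wide at 43.8 kb, held the element and lay in an intron of FSIP1. The upstream peak is shown as the closest at this gene.
THBS1 -1.15 kb (chr15:39872051-39872200, plus strand): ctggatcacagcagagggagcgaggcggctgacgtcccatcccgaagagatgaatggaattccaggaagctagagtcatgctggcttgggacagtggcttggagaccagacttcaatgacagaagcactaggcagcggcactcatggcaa

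The 3 cadherin genes had 3 Fra-1 and 3 Fra-2 peaks in all, where the mean over all protein-coding genes was 0.944 and 1.45 per gene, and none was shared. CDH2 (ENSG00000170558, chromosome 18, 25512843 to 25757910, minus strand), the largest of the 9, had 2 Fra-1 and 2 Fra-2 peaks in 412 kb searched, and all were 100 or 150 bp wide. Both Fra-1 peaks were 100 bp wide and neighbours in an intron, at 64.9 and 65.0 kb, with 0.05 kb between them and no TGAGTCA. A Fra-2 peak of 150 bp stood in the same gene at 61.8 kb, 3 kb from the nearer Fra-1 peak, and held the element, and the other Fra-2 peak (100 bp) lay beyond the gene at 255 kb. The intronic Fra-2 site reads:
CDH2 61.8 kb (chr18:25695251-25695400, plus strand): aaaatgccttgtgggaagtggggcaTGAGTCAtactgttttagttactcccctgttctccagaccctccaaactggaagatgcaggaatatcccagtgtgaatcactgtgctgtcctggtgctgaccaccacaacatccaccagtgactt

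CDH11 (ENSG00000140937, chromosome 16, 64977656 to 65160015, minus strand), a cadherin of mesenchymal and bone-forming cells, had no peak of either list in 353 kb. The nearest to its canonical TSS were 681 kb away for Fra-1 and 961 kb away for Fra-2.

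CDH1 (ENSG00000039068, chromosome 16, 68771195 to 68869440, plus strand), the epithelial cadherin and the counterpart of the other genes, had 1 peak of each factor, and neither lay in the gene. The Fra-2 peak at -29.6 kb (68741451 to 68741651, 200 bp) was in an intron of the neighbouring P-cadherin gene CDH3. The Fra-1 peak at 185 kb (68955701 to 68955801, 100 bp) was in an intron of TANGO6 and entered the count through a transcript of CDH1 that is not protein-coding, whose TSS was 98.6 kb away. With TSSs of protein-coding transcripts alone, CDH1 had no Fra-1 peak. Each CDH1 peak held 1 TGAGTCA. The E-box CAGGTG, which ZEB and SNAIL repressors bind, was inside the Fra-2 peak, and near the Fra-1 peak it lay outside the peak's borders but within 100 bp of its centre. In the same windows at the other genes it was found at the SPARC site at -55.0 kb alone. Over all peaks such windows held it in 11.4% (Fra-1) and 12% (Fra-2). The Fra-2 site reads:
CDH1 -29.6 kb (chr16:68741451-68741650, plus strand): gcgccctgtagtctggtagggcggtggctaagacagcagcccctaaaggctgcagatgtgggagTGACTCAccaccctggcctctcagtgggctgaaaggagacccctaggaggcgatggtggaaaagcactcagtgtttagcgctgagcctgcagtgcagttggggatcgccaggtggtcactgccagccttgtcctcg

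Taking the 9 genes as a set, 16 of 22 Fra-1 peaks (72.7%, 49.8 to 89.3) and 16 of 27 Fra-2 peaks (59.3%, 38.8 to 77.6) overlapped the other list by at least 1 bp. Over all peaks the shares were 80.4% and 61.6%, inside these intervals. By role, 16 of the 27 sites at filament and matrix genes were in both lists, 8 in the Fra-2 list alone and 3 in the Fra-1 list alone. Cadherin genes had 6 sites, 3 in each list alone. Whether cadherin and matrix genes differ in this was not tested.

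At shared sites, where overlap itself keeps the peaks close, centres were a median of 25 bp and at most 75 bp apart, on a grid of 50 bp. Widths were equal at 5 of the 16 sites, the Fra-1 peak was the wider at 6 and the Fra-2 peak at 5. The widest gap was at TGFBI at -11.8 kb, with 500 bp for Fra-1 against 250 bp. Shared Fra-1 peaks had a median width of 225 bp (100 to 500 bp) and unshared ones 100 bp (100 to 250 bp), against 150 and 100 bp over the whole list. Shared Fra-2 peaks had a median of 250 bp (100 to 450 bp) and unshared ones 200 bp (100 to 250 bp), against 200 and 150 bp.

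**Figure D3:**
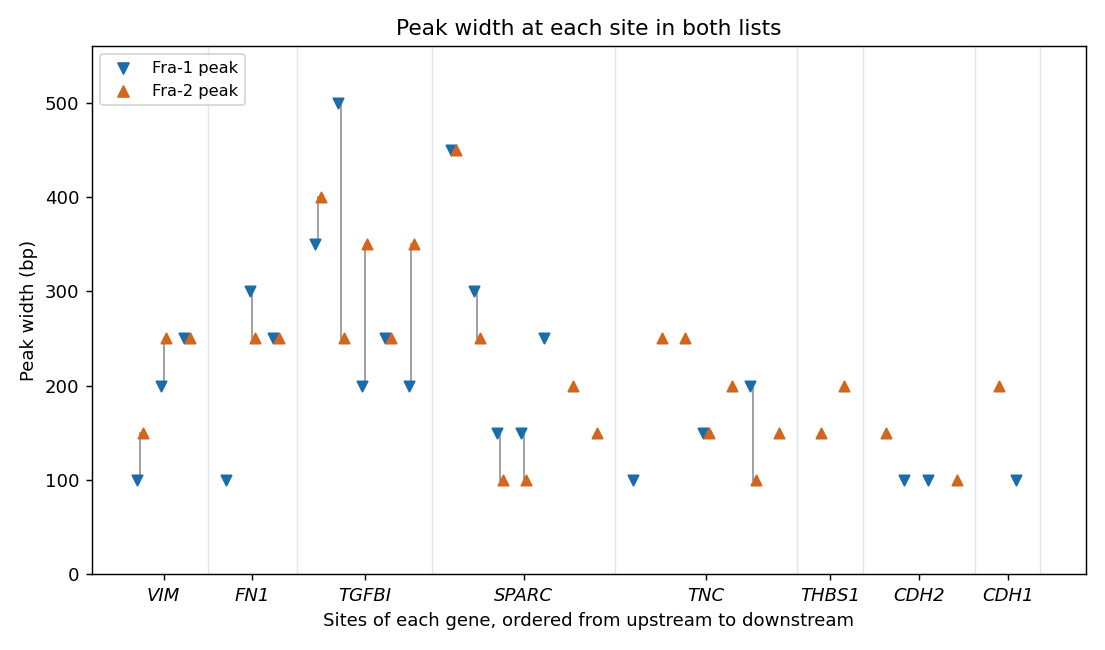
Width in bp of the Fra-1 peak (downward triangle) and the Fra-2 peak (upward triangle) at each of the 33 sites, grouped by gene, with a line joining the widths of a shared site. The widest are the 500 bp Fra-1 peak at TGFBI and the 450 bp pair at SPARC, and no peak at CDH2 exceeds 150 bp.

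Within 100 bp of the centre, TGAGTCA was found in 11 of 22 Fra-1 peaks (50%, 28.2 to 71.8) and 15 of 27 Fra-2 peaks (55.6%, 35.3 to 74.5) of these genes. Over all peaks on chromosomes 1 to 22 and X it was in 57.8% and 68.4%. In windows of the same 201 bp without a peak it was in 3.31% around the 9 genes and in 3.00% genome-wide. Of the 16 sites in both lists 9 held a copy within their borders, as did 8 of 11 Fra-2-only and 3 of 6 Fra-1-only sites. Over the whole lists, windows within 100 bp of the centre held it in 62.3% of shared and 39.6% of unshared Fra-1 peaks, and in 62.6% of shared and 77.4% of unshared Fra-2 peaks. GGAATG, which contains the core bound by TEAD factors, was in 6 Fra-1 peaks (27.3%, 10.7 to 50.2) and 7 Fra-2 peaks (25.9%, 11.1 to 46.3), against 26.2% and 22.7% over all peaks and 10.6% of windows without a peak genome-wide. TGTGGTT was in 3 peaks of each list (13.6% and 11.1%), at 2 sites of TGFBI and at the SPARC site at -58.4 kb, against 7.10% of all Fra-1 and 6.40% of all Fra-2 peaks. CAGGTG was in 2 peaks of each list (9.09% and 7.41%), near its rates over all peaks given above, and in 15.2% of windows without a peak around these genes. The forkhead core TGTTTAC was in 1 Fra-1 and 2 Fra-2 peaks, against 5.18% and 4.44% of all peaks. Over all peaks TGACGTCA, the cyclic AMP response element, was in 0.204% and 0.398%, and the ETS motif CCGGAAGT in 0.378% and 0.374%. Neither was found within 100 bp of a centre of the 22 and 27 peaks. The exact intervals of these zeros reach 15.4% (Fra-1) and 12.8% (Fra-2), so rates as low as those of the lists could not be seen in so few peaks. The Fra-1 peak of SPARC at -55.0 kb did hold CCGGAAGT inside its borders, but not wholly within 100 bp of its centre. All motifs were sought on both strands, and none of these contains another.

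Most copies of the element around these genes had no peak. The regions searched held 448 copies of TGAGTCA, of which 13 (2.90%) lay in a Fra-1 peak, 18 (4.02%) in a Fra-2 peak and 21 (4.69%) in a peak of either. Genome-wide 1.57% of copies lay in a Fra-1 and 2.29% in a Fra-2 peak. The genome-wide share in a peak of either list was not computed. The density of elements ranged from 15.0 per 100 kb at CDH11 to 22.7 at TNC. Around CDH11 0 of 53 copies were in a peak of either list, and around all 3 cadherin genes 3 of 172 (1.74%). Around the filament and matrix genes 18 of 276 (6.52%) were in a peak of either list, with the highest count at TGFBI, SPARC and TNC, at 4 each. These shares have no genome-wide share of the same kind beside them, and whether they differ was not tested.

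**Figure D4:**
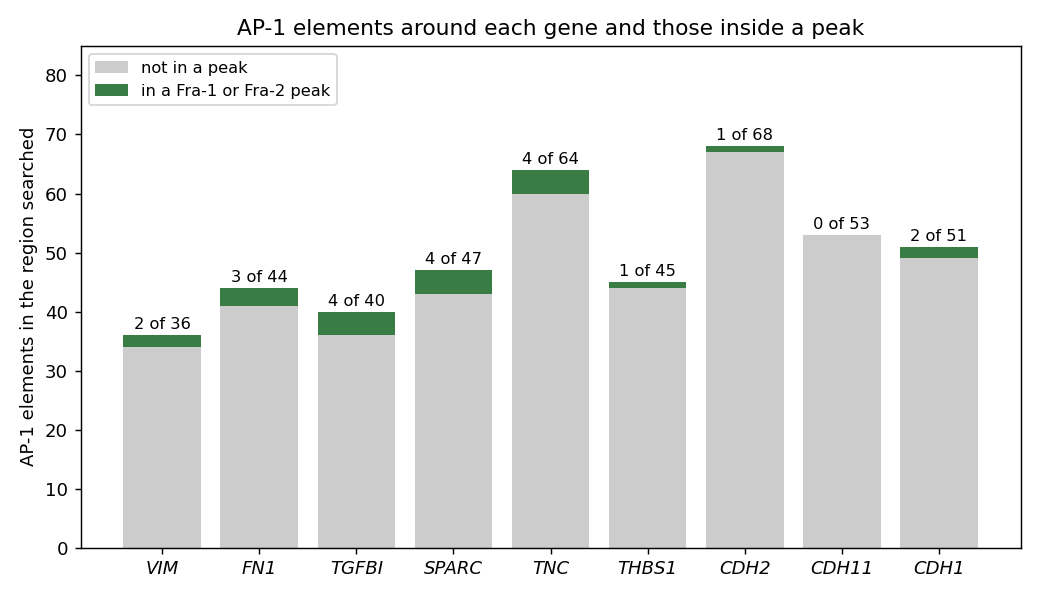
Number of TGAGTCA elements in the region searched around each gene, split into those outside every peak (grey) and those inside a Fra-1 or Fra-2 peak (green), with the counts printed above the bars. CDH11 has 53 elements and none in a peak, and TGFBI has 4 of 40.

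Few of the 49 peaks lay at promoters. Within 1 kb of a TSS of a protein-coding transcript lay 2 Fra-1 peaks, at VIM and TGFBI, and 4 Fra-2 peaks, at VIM, TGFBI, SPARC and TNC. By gene, 2 of the 9 had such a Fra-1 peak, against 1.81% of all protein-coding genes, and 4 of the 9 such a Fra-2 peak, against 3.55%. At the canonical TSS alone the counts were 1 (VIM) and 2 (VIM and TNC), counted in this way once the data had been seen. Of the Fra-1 peaks 7 lay in the body of their gene, and of the Fra-2 peaks 8. The nearest protein-coding TSS belonged to the gene itself for 16 of 22 peaks in the Fra-1 list and 20 of 27 in the Fra-2 list. The others were nearest to TRDMT1, ATOX1, FSIP1, CDH3 or TANGO6. None of the 49 peaks lay in tandem-repeat-like sequence: at most 10.4% of the 10-base words within 1000 bp of a centre recurred there, below the 20% taken as the limit.

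The limit of 100 kb fell close to several peaks. Just inside it were the Fra-1 peak of FN1 at -93.5 kb and that of CDH1. Just outside were a Fra-2 peak 4.64 kb beyond the edge at VIM (17165551 to 17165651), where the next Fra-1 peak was 18.6 kb beyond, and a Fra-2 peak 12.7 kb beyond the edge at SPARC. At CDH11 the next peaks were 432 kb (Fra-1) and 711 kb (Fra-2) beyond the edge.

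The families and partners of these genes were counted by the same rule, in 9 lists with 85 further genes. Of these 46 had a Fra-1 peak (54.1%) and 54 a Fra-2 peak (63.5%), against 45.3% and 58.6% of all protein-coding genes. The other type III filament genes all had both: DES, of muscle, had 1 and 2 peaks, PRPH, of peripheral neurons, 1 of each, and GFAP, of astrocytes, 2 and 5. In the tenascins, TNC was the one with Fra-1 peaks: TNN and TNR had none of either factor and TNXB had 2 Fra-2 peaks. Among 4 further thrombospondins, Fra-1 peaks were found at 2 and Fra-2 peaks at 3. THBS2 had 2 of each, THBS4 1 of each, THBS3 1 Fra-2 peak, and COMP, of cartilage, had none. In the SPARC family 5 of 7 further genes had no peak (SPARCL1, SMOC1, SMOC2, SPOCK3 and FSTL1), SPOCK1 had 1 Fra-2 peak, and SPOCK2 had 3 of each. POSTN, the closest relative of TGFBI, had 1 of each, STAB2 had 2 and 5, and STAB1 none.

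Classical cadherins beyond the 3 had a Fra-1 peak at 7 of 15 genes and a Fra-2 peak at 7 of 15, and 6 of the 15 had a shared peak. The sole peak of CDH3, in the Fra-2 list, is the one also counted for CDH1 at -29.6 kb. CDH4, with 788 kb searched, had 5 Fra-1 and 8 Fra-2 peaks, and CDH6, CDH7, CDH8, CDH9, CDH10, CDH19 and CDH20 had none, as CDH11. The catenins, which tie cadherins to actin, had 3 of 7 and 2 of 7: CTNNA1 led with 4 and 10 peaks, and CTNNA3, CTNND1, CTNND2 and JUP had none. Of 20 junction genes 13 had a Fra-1 and 16 a Fra-2 peak, and of 23 other mesenchymal matrix and cytoskeletal genes 15 and 18. The claudin gene CLDN4 had 6 Fra-1 and 4 Fra-2 peaks, part of them common with CLDN3, while EPCAM, TJP1 and PKP1 had 5 Fra-2 peaks each, and PKP2, CRB3, MARVELD3 and PATJ had no peak of either. On the mesenchymal side LOXL2, a collagen cross-linking enzyme, had 5 and 6 peaks and TPM1, a tropomyosin, 5 and 4, while LUM, DCN, BGN and VTN had none.

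**Figure D5:**
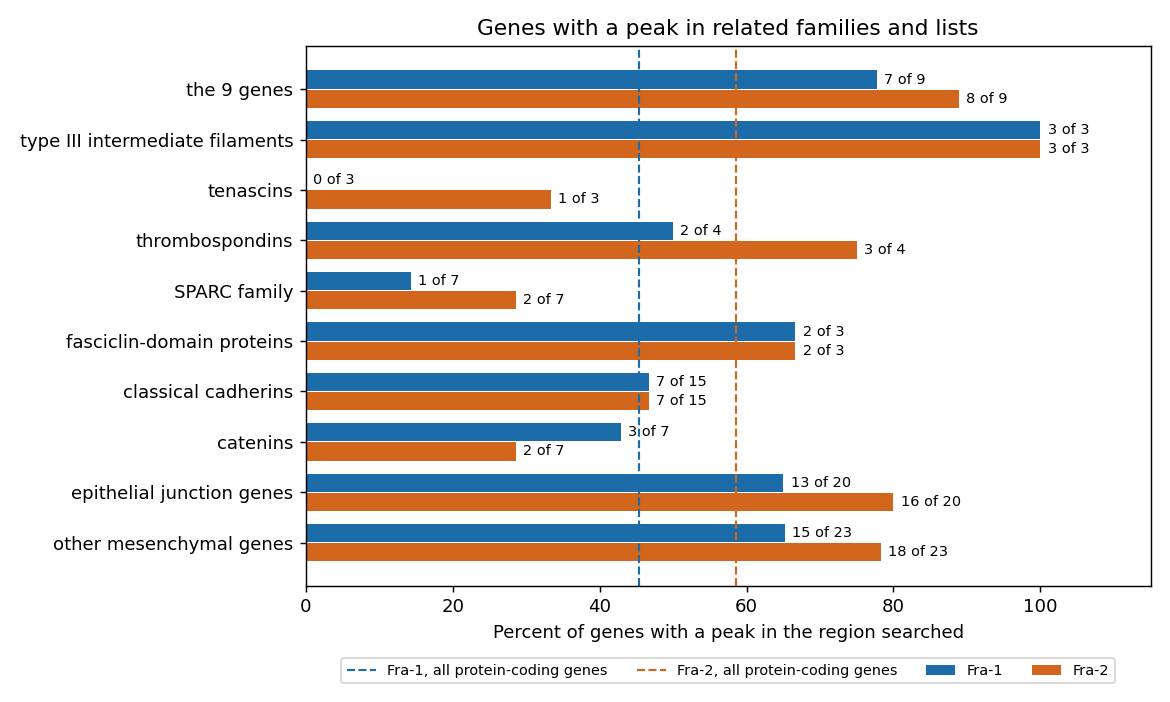
Percent of genes with at least 1 Fra-1 (blue) or Fra-2 (orange) peak among the 9 genes and in each list without them, with counts beside the bars and dashed lines at the percent of all protein-coding genes (45.3 and 58.6). The bars of the 20 epithelial junction genes and the 23 other mesenchymal genes reach nearly the same height.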

How the data were processed

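The authors' deposited files hold 1 list of peaks per antibody, with the chromosome, start and end of each peak as positions in bp on hg19 and no score or other value. The submitters' processing notes name Bowtie2 and hg19. Which program called the peaks, at what threshold, whether against the input, and whether on pooled replicates: not given in the sources used here. All starts lie 1 above a multiple of 50, so they were read as 1-based. Sequences were read from GRCh37, whose chromosomes 1 to 22, X and Y contain every peak placed on them. A printed peak sequence ends 1 base before the peak's end position, so that its length equals the width.

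Peaks were assigned to every protein-coding gene by the same rule, so a peak can count for several genes. The canonical transcript is that tagged so in GENCODE 44. Shared means at least 1 bp in common. The 9 genes, the family lists and the settings were chosen with earlier results of these data known. The 93 list entries all matched the annotation. All 9 genes are named. Other genes are named for the most peaks or no peak in their list, and a few for contrast. Since the lists hold no score, width replaced it in the stricter setting. No test was made, as each factor has 1 list: counts stand beside those over all genes or peaks. Assignment, overlap and motif search were tested on simulated data. Tools were pysam 0.24.0, pandas 2.3.3, numpy 2.4.6, scipy 1.17.1 and matplotlib 3.10.9 under Python 3.11.15.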

Additional observations from a re-analysis of the deposited data

How the results depend on the processing

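Of 60 values under other settings, 49 stayed within 1.5 times the reported count or inside the interval of the reported share. Counts of peaks at the 9 genes depended on the reach: 8 Fra-1 and 11 Fra-2 peaks lay in the gene or within 10 kb of a TSS, and 14 Fra-1 peaks within 50 kb, in place of 22 and 27. Among peaks wider than the median of their list there were 13 Fra-1 and 17 Fra-2 peaks, and the shared part of the Fra-1 peaks was 92.3%. The share with TGAGTCA, 50% (Fra-1) and 55.6% (Fra-2) as reported, stayed inside its wide intervals but was higher in narrower selections. It was 69.2% and 70.6% among the wider peaks, and 62.5% and 72.7% within 10 kb. With TGANTCA in place of TGAGTCA the element was in 72.7% of Fra-1 peaks. Promoter peaks numbered 4 (Fra-1) and 7 (Fra-2) within 5 kb, and 1 and 2 at the canonical TSS alone. The counts shift because the settings admit fewer or more peaks or a looser element. For the shared part and the share with TGAGTCA the cause was not tested. The number of genes with a peak stayed between 5 and 7 for Fra-1 and between 7 and 8 for Fra-2 in all settings run. No paired analysis was possible because each factor has 1 list. The lists limit all of this: they carry no depth, height or replicate, and copy number in this aneuploid line was not examined.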

Other observations

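RefSeq promoters, which run from 250 bases before to 50 after a gene's start (GRCh38.p14), were searched for the same motifs on both strands. They matched 7 of the 9 genes (8 promoters, with 2 starts of CDH2). None of the 8 held TGAGTCA, against 4.95% of 35116 promoters, a rate too low for its absence from 8 promoters to be informative. GGAATG was in those of SPARC and THBS1, against 14.0% of all, and TGTGGTT in that of VIM, against 4.27%. TGACGTCA was in that of FN1, against 1.85%, and CAGGTG in none, against 20.6%. Which 2 of the 9 genes had no matched promoter is not given here, so the lack of CAGGTG cannot be read as one at CDH1. These windows end short of the peaks at -0.865 kb of TNC and -1.15 kb of THBS1. They also leave out the TGAGTCA of the shared VIM site at 0.286 kb, although that site lies within 1 kb of the TSS.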
